A study of Mus musculus with 12 samples.

Results

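The 10 genes described here act when germ cells enter meiosis and pair their chromosomes. They were chosen with earlier results of these data known. Counts and medians set beside those of all tested genes therefore describe the set and do not test it. The genes were taken by symbol from the 54446 gene identifiers of the expression tables, and each symbol matched 1 identifier. Stra8 and Dazl govern meiotic entry, Sycp2, Sycp3 and Hormad1 build the chromosome axis, Sycp1 and Syce1 build the centre of the synaptonemal complex, and Rec8, Smc1b and Stag3 are subunits of meiotic cohesin. Their RNA was measured in mouse embryonic stem (ES) cells, with 12 libraries in 6 groups of 2. KH cells carry no deletion named in the labels and stand for the wild type, and DNMT3ABKO cells are without Dnmt3a and Dnmt3b, the enzymes of de novo DNA methylation. Each line was collected untreated (0 h) and after 72 and 144 h of INK128, which inhibits mTOR, a growth-controlling kinase (mTORi), and puts ES cells in a diapause-like pause. The labels name the lines E14 KH and E14 DNMT3ABKO, whereas the study's methods call the wild type KH2 and grow it, like the knockout, on feeder fibroblasts, with viable single cells sorted before RNA was taken. Each genotype is 1 line, so line and genotype cannot be told apart, and with no untreated culture at 72 or 144 h, mTORi and time in culture cannot be told apart either. The study's reporting form states for its experiments in general that they were repeated independently and that time points of a replicate were handled side by side, but the labels do not say this of these libraries, so p-values measure the spread between them, which may be technical.

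Meiosis reduces the chromosome set after homologous chromosomes have paired and recombined. Retinoic acid and DAZL, an RNA-binding protein of germ cells, prepare the step, and STRA8, acting with MEIOSIN, switches on the meiotic genes. Cohesin with the meiosis-specific subunits REC8, STAG3 and SMC1B holds sister chromatids along an axis of SYCP2, SYCP3 and HORMAD1, and SYCP1 with SYCE1 zips the axes of homologues together. In ES cells and somatic tissues many of these genes are held silent through CpG-rich promoters, by DNA methylation and by the repressors E2F6 and MGA-MAX, which recognise the motifs TCCCGC and CACGTG.

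The promoters are shown because the genes are compared in cells with and without de novo methyltransferases. RefSeq promoter windows of GRCm38.p6, with 250 bases before and 50 after the start site, were found for all 10 genes. For Hormad1 2 promoters were listed, and the first was used. The RefSeq start lay 785 (Stra8), 269 (Stag3) and 129 bases (Rec8) inside the annotated gene, so the Stra8 and Stag3 windows lay wholly inside it. Between 10 (Stra8 and Sycp2) and 30 (Stag3) CpG dinucleotides stood in each window, with 28 in Dazl, 29 in Smc1b and 24 in Hormad1, against a median of 7 over all 32841 promoters in that table. Letters were searched on both strands, and no matches to different motifs overlapped. CACGTG, the palindromic E-box, stood in the windows of 4 genes (Sycp3, Hormad1, Sycp1 and Stag3) and in 7.15% of all promoters. TCCCGC, the core of the E2F6 site, stood in 6 (the same 4, Rec8 and Smc1b) and in 20% of all promoters. Both motifs together stood in 4 windows and in 1.99% of all promoters. AGGTCA, the core bound by retinoic acid receptors, stood in 3 windows (Stra8, Sycp3 and Hormad1) and in 16.3% of all promoters, and the CCAAT box in 6 windows and in 37.4%. A match describes the letters only, and no binding was measured here.

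Expression is given as TPM, a share of the library's transcripts corrected for their length. Levels can thus be compared between genes, but a change in total RNA per cell is not seen. After normalization to added spike-in RNA, the study reported that transcription fell globally under mTORi in wild-type and Dnmt3a/b knockout cells. A rise in TPM below is therefore a larger share of transcripts, and RNA per cell was not measured here. Tests were made on log2(TPM + 1) with limma, two-sided, over the 15727 genes averaging 1 TPM or more, and calls needed an adjusted p (Benjamini-Hochberg) under 0.05. All differences below are on the log2(TPM + 1) scale, which understates changes of low genes. Where 2 rises start from unequal levels, the scale also alters the difference between them. As a check of the labels, Dnmt3a averaged 9.45 to 19.4 TPM in the DNMT3ABKO groups and 56.2 to 110 TPM in the KH groups, and Dnmt3b 12.9 to 26.9 and 145 to 257 TPM. The ES cell label was met by 10 of 10 markers, which summed to 4657 to 4971 TPM at 0 h and 6710 to 7247 TPM under INK128. At 144 h 9 were called higher and 0 lower in KH cells (27.4% and 23.9% of all tested genes). In DNMT3ABKO cells 7 were called higher and 1 lower (31.4% and 26.2%). Between the lines 0 were called at 0 h, where 9.06% of tested genes were called in either direction. In DNMT3ABKO cells 1 stood higher and 3 lower at 72 h (19.3% in either direction), and 2 higher and 2 lower at 144 h (26.5%). Markers of other cells were present too. The 12 fibroblast markers, none at 0, summed to 1941 to 2409 TPM at 0 h, 807 to 980 at 72 h and 417 to 654 at 144 h, and the 8 macrophage markers to 211 to 265, 102 to 154 and 19.7 to 33.6 TPM. Fibroblast sums of the lines never overlapped. Untreated DNMT3ABKO libraries held more (2241 and 2409 TPM) than untreated KH libraries (1941 and 2139 TPM). Treated DNMT3ABKO libraries held less than KH libraries. The sums were 821 and 807 against 979.5 and 950.5 TPM after 72 h, then 429 and 417 against 654 and 553 TPM after 144 h. Fibroblast and macrophage sums fell with time in both lines, while the meiotic genes rose. The part of these cells in the results, differences between the lines included, was not tested. At 144 h, 11 of 11 tested fibroblast markers were lower in DNMT3ABKO cells (26.2% of tested genes) and 10 of 11 in KH cells (23.9%). Between the lines, 2 of 11 fibroblast markers were called at 0 h (9.06% of tested genes), 0 at 72 h (19.3%) and 2 at 144 h (26.5%). Of 7 tested macrophage markers, 6 were lower in DNMT3ABKO cells at 72 h and 3 were higher at 144 h. In bulk RNA, fewer cells of a type and less RNA per cell cannot be told apart. Replicates of DNMT3ABKO at 0 h were the least alike (r of 0.985 across genes, against 0.993 to 0.996 in the other groups).

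As a share of transcripts, RNA of the meiotic genes rose under mTORi in both lines, and most of them stood higher without de novo methyltransferases. Of the 10 genes, 9 passed the filter on low values, each with at least 1.28 TPM in every library, and Sycp2 did not, at 0.215 to 0.916 TPM. In KH cells all 9 were called higher at 72 h against 0 h, where 28.3% of tested genes were called higher, and all 9 at 144 h, against 27.4% (23.9% were called lower). In DNMT3ABKO cells 8 of 9 were called higher at 72 h (34.3% of tested genes) and 9 at 144 h (31.4%, with 26.2% called lower). In KH cells the median difference of the 9 genes was 1.20 at 72 h, where the median of all tested genes was 0.08, and 0.97 at 144 h, where it was 0.05. The medians in DNMT3ABKO cells were 1.40 beside 0.12 and 1.09 beside 0.05. Between the lines, 7 of the 9 were called at 0 h (9.06% of tested genes), 8 at 72 h (19.3%) and 8 at 144 h (26.5%). DNMT3ABKO cells stood above KH cells for 6 of them at 0 h and for 7 later, and 1 gene, Sycp3, was lower each time. The median difference between the lines was 1.08, 1.14 and 1.55 at the 3 times, beside -0.05, -0.04 and -0.04 over all tested genes. Comparisons within a line share its 0 h libraries, and comparisons of lines share the libraries of the time courses, so they are not independent. Median-ratio scaling moved the median of all tested genes at 72 h in DNMT3ABKO cells from 0.12 to -0.0039 and the share of higher genes among those called at 72 h from 61.3% to 48.5% there and from 59.1% to 46.4% in KH cells. From 72 to 144 h that share moved from 31.7% to 43.9% in KH and from 32.3% to 47.6% in DNMT3ABKO cells.

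**Figure D1:**
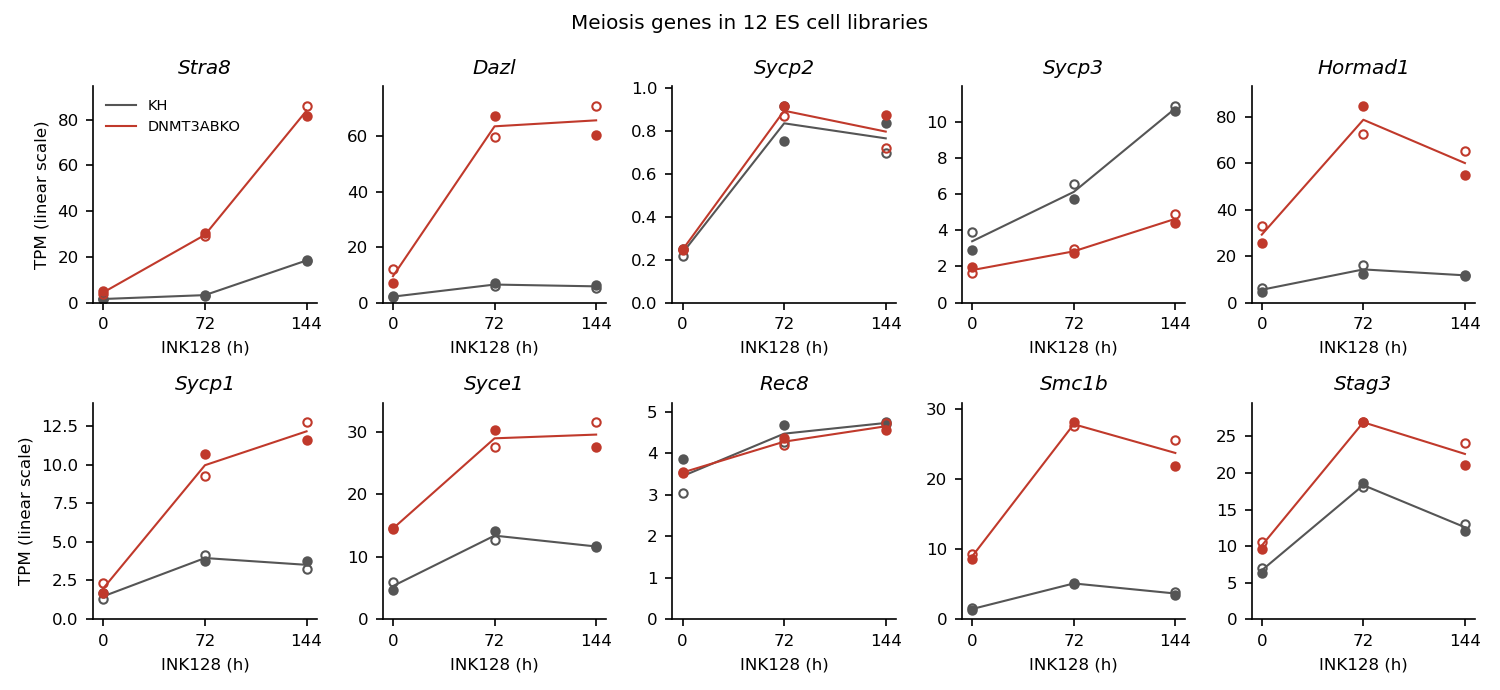
TPM (vertical axis, linear, own scale in each panel) of the 10 meiotic genes against hours of INK128 in KH (grey) and DNMT3ABKO (red) cells; filled and open circles are replicates 1 and 2 and lines join the means. Stra8 reached 81.7 and 86.1 TPM in DNMT3ABKO cells at 144 h, and Sycp3 is the panel in which the KH line lies above at every time.

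Stra8, the retinoic acid-responsive factor that starts the meiotic programme, had the largest rise to 144 h of the 9 tested genes in each line. The gene spans chromosome 6, 34920163 to 34939344 (mm10, ENSMUSG00000029848.11). Its RefSeq promoter lies on the plus strand at chr6:34920698-34920997, with the start site 785 bases inside the annotated gene of the files, and is shown 5′ to 3′ with the AGGTCA and CCAAT matches of either strand in capitals.
Stra8: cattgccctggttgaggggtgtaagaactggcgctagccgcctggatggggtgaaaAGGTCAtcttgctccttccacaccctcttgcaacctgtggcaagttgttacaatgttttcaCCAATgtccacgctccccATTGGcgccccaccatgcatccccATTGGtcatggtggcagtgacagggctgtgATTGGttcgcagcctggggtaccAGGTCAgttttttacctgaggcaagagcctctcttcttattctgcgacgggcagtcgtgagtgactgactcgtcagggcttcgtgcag
The window held 2 AGGTCA motifs, 194 and 38 bases before the start, and 4 CCAAT boxes, but neither CACGTG nor TCCCGC.

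In KH cells, Stra8 stood at 1.59 and 1.55 TPM at 0 h, 3.07 and 3.47 TPM at 72 h, and 18.0 and 18.8 TPM at 144 h. In DNMT3ABKO cells the libraries held 5.23 and 3.72, 30.3 and 28.9, and 81.7 and 86.1 TPM. No libraries of neighbouring groups overlapped in the order KH 0 h, KH 72 h, DNMT3ABKO 0 h, KH 144 h, DNMT3ABKO 72 h, DNMT3ABKO 144 h, so untreated DNMT3ABKO cells already held more Stra8 RNA than KH cells after 72 h. The rise from 0 to 144 h was 2.92 ± 0.12 (SE) in KH cells (adjusted p = 6.94e-08) and 3.97 ± 0.12 in DNMT3ABKO cells (adjusted p = 7.04e-09), or 11.7-fold and 18.8-fold in mean TPM. Most of the KH rise came after 72 h: the step to 72 h was 0.73 (adjusted p = 0.000878) and the step from 72 to 144 h was 2.19 (adjusted p = 1.94e-06). DNMT3ABKO cells rose by 2.50 in the early step (adjusted p = 2.55e-07) and by 1.47 in the late step (adjusted p = 1.45e-05). DNMT3ABKO cells stood higher by 1.08 at 0 h (adjusted p = 0.000429), 2.84 at 72 h (adjusted p = 1.78e-07) and 2.13 at 144 h (adjusted p = 5.54e-07), which is 2.85-fold, 9.07-fold and 4.55-fold in mean TPM.

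Dazl encodes an RNA-binding protein that licenses germ cells for meiosis. It spans chromosome 17, 50279395 to 50293636 (ENSMUSG00000010592.9), and its promoter lies on the minus strand at chr17:50293571-50293870, with its only match, a CCAAT box read on the opposite strand as ATTGG, in capitals.
Dazl: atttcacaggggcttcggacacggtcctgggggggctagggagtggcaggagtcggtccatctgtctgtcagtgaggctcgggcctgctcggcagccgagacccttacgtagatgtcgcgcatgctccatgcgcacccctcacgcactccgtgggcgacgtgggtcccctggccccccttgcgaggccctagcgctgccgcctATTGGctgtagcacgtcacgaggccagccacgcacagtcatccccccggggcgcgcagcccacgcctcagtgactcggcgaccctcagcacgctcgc
Its 28 CpG exceed the number in 85.8% of all promoters.

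The KH libraries held 1.99 and 2.30 TPM of Dazl at 0 h, 7.16 and 5.82 TPM at 72 h, and 6.45 and 5.25 TPM at 144 h. The DNMT3ABKO libraries held 7.04 and 11.99, 67.2 and 59.8, and 60.4 and 70.9 TPM. Untreated DNMT3ABKO cells overlapped KH cells at 72 h, and within each line the 72 and 144 h libraries overlapped. Dazl had thus risen by 72 h in both lines, by 1.25 ± 0.20 in KH (adjusted p = 0.00074) and 2.66 ± 0.20 in DNMT3ABKO cells (adjusted p = 4e-06), and the step from 72 to 144 h was not called in KH (-0.13, 95% interval -0.58 to 0.32, adjusted p = 0.709) or DNMT3ABKO cells (0.05, -0.40 to 0.49, adjusted p = 0.899). At 144 h DNMT3ABKO cells exceeded KH cells by 3.28 ± 0.20 (adjusted p = 1.06e-06), an 11.2-fold difference in mean TPM and the largest between the lines among the 9 tested genes at that time. The differences at 0 and 72 h were 1.70 (adjusted p = 0.000574) and 3.11 (adjusted p = 3.24e-06).

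The axis genes did not move as a group between the lines. Hormad1, whose product marks unsynapsed axes, was the most abundant of the 10 genes in the untreated knockout, and Sycp3, the core protein of the lateral element, was lower there. Hormad1 spans chromosome 3, 95559677 to 95587671 (ENSMUSG00000028109.14), and Sycp3 chromosome 10, 88459569 to 88473236 (ENSMUSG00000020059.9). Their promoters are shown together because they hold the same 3 motifs, CACGTG (2 matches each), TCCCGC and AGGTCA, all in capitals with any CCAAT box. Both lie on the plus strand, at chr3:95559427-95559726 and chr10:88459337-88459636.
Hormad1: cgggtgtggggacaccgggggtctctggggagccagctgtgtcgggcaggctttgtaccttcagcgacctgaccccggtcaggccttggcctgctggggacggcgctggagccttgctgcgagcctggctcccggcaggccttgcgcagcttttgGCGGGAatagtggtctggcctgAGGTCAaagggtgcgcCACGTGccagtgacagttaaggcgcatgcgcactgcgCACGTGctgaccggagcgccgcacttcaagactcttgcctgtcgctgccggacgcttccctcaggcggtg
Sycp3: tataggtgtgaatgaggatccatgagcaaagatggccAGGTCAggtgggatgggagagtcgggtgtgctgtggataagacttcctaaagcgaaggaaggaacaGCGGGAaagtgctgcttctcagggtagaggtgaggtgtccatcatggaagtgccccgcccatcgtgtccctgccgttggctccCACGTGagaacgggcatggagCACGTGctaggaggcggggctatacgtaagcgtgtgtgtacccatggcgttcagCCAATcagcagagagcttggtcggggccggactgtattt
The E-boxes stood 57 and 20 bases before the start of Hormad1 and 64 and 43 bases before that of Sycp3.

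Hormad1 stood in KH cells at 4.77 and 6.29 TPM before treatment, 12.4 and 16.2 after 72 h, and 12.1 and 11.4 after 144 h. In DNMT3ABKO cells it stood at 25.7 and 32.9, 84.9 and 72.8, and 55.0 and 65.3 TPM. Every DNMT3ABKO library, untreated ones included, lay above every KH library. The difference between the lines was nearly the same at each time, 2.21 ± 0.17 (adjusted p = 2.7e-05), 2.39 ± 0.17 (adjusted p = 5.82e-06) and 2.26 ± 0.17 (adjusted p = 5.08e-06), or 5.30-, 5.51- and 5.12-fold in mean TPM. The rise at 72 h was 1.23 in KH (adjusted p = 0.000265) and 1.40 in DNMT3ABKO cells (adjusted p = 7.22e-05). The step from 72 to 144 h was not called in DNMT3ABKO cells (-0.39, 95% interval -0.76 to -0.01, adjusted p = 0.118), where it passed with only the groups compared in the model (adjusted p = 0.0366), or in KH cells (-0.25, -0.63 to 0.12, adjusted p = 0.324).

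Sycp3 went the other way between the lines. KH cells held 2.89 and 3.89 TPM at 0 h, 5.70 and 6.52 TPM at 72 h, and 10.6 and 10.9 TPM at 144 h. DNMT3ABKO cells held 1.95 and 1.64, 2.72 and 2.94, and 4.37 and 4.88 TPM, below the KH libraries of the same time in every case. The difference was -0.64 ± 0.13 at 0 h (adjusted p = 0.0119), -0.89 ± 0.13 at 72 h (adjusted p = 0.000984) and -1.06 ± 0.13 at 144 h (adjusted p = 0.000219), which leaves 53%, 46.3% and 43.1% of the KH mean TPM. At 0 h the call was lost without KH replicate 2 (-0.48, adjusted p = 0.0884) and with only the groups compared in the model (adjusted p = 0.193). Within each line Sycp3 rose like the others, by 1.43 in KH (adjusted p = 1.19e-05) and 1.01 in DNMT3ABKO cells (adjusted p = 8.4e-05) from 0 to 144 h.

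Of the 9 tested genes, Sycp3 and Stra8 were those called higher at 144 h than at 72 h, in KH cells (7.24% of tested genes) and in DNMT3ABKO cells (8.81%), and Smc1b and Stag3 were called lower in KH cells (15.6%). The late step of Sycp3 was 0.72 in KH (adjusted p = 0.00301) and 0.55 in DNMT3ABKO cells (adjusted p = 0.0093). In DNMT3ABKO cells it missed the threshold without replicate 1 at 72 h (0.51, adjusted p = 0.0674) or replicate 2 at 144 h (0.49, adjusted p = 0.0731), which leaves Stra8 as the 1 member called. Its early step there, 0.46 (adjusted p = 0.0118), was lost without replicate 2 at 72 h (0.42, adjusted p = 0.0687) and with only the groups compared in the model (adjusted p = 0.053). Sycp3 lies wholly within Chpt1, a phospholipid enzyme gene on the opposite strand, over 13668 bases. Whether strand was used in quantification is not given in the sources used here, and Chpt1 stood at 2.09 to 7.90 TPM.

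Sycp2, the partner of SYCP3 in the axis (chromosome 2, 178345293 to 178407685, ENSMUSG00000060445.11), was near the limit of the tables. It stood at 0.248 and 0.215 TPM in untreated KH cells, 0.753 and 0.915 TPM after 72 h, and 0.835 and 0.694 TPM after 144 h. DNMT3ABKO cells held 0.243 and 0.249, 0.916 and 0.869, and 0.873 and 0.718 TPM. Treated libraries lay above untreated ones in both lines, while the lines overlapped at every time. Without the filter on low values, with 37364 genes tested, the rise to 144 h was 0.52 in KH (adjusted p = 0.0024) and 0.53 in DNMT3ABKO cells (adjusted p = 0.00158), and the difference between the lines at 144 h was 0.03 (95% interval -0.16 to 0.21, adjusted p = 0.98).

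Sycp1, the transverse filament that bridges the paired axes (chromosome 3, 102818499 to 102936100, ENSMUSG00000027855.13), began alike in both lines and then parted. KH cells held 1.67 and 1.28 TPM untreated, 3.79 and 4.12 TPM after 72 h, and 3.79 and 3.24 TPM after 144 h, and DNMT3ABKO cells 1.66 and 2.34, 10.7 and 9.25, and 11.6 and 12.8 TPM. The untreated libraries of the lines overlapped, and the difference was not called (0.27, 95% interval -0.04 to 0.58, adjusted p = 0.266). It was 1.14 ± 0.14 at 72 h (adjusted p = 0.000335) and 1.55 ± 0.14 at 144 h (adjusted p = 2.65e-05), a 2.52-fold and 3.46-fold difference in mean TPM. DNMT3ABKO cells rose by 2.14 from 0 to 144 h (adjusted p = 7.65e-07) and KH cells by 0.87 (adjusted p = 0.000562).

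Syce1, a central element protein that steadies the bridge (chromosome 7, 140777229 to 140787852, ENSMUSG00000025480.5), differed before treatment instead. KH cells held 4.73 and 5.87, 14.1 and 12.7, and 11.5 and 11.7 TPM, and DNMT3ABKO cells 14.6 and 14.5, 30.4 and 27.6, and 27.6 and 31.6 TPM at the 3 times. All DNMT3ABKO libraries lay above all KH libraries. The difference was 1.31 ± 0.11 at 0 h (adjusted p = 4.78e-05), 1.06 at 72 h (adjusted p = 9.21e-05) and 1.27 at 144 h (adjusted p = 1.59e-05). Both lines gained nearly the same amount by 144 h, 1.01 in KH (adjusted p = 4e-05) and 0.98 in DNMT3ABKO cells (adjusted p = 3.4e-05).

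The 3 meiotic cohesin subunits behaved differently from each other. Smc1b, the meiotic ring subunit that replaces SMC1A (chromosome 15, 85064689 to 85131964, ENSMUSG00000022432.7), stood at 1.34 and 1.54, 5.19 and 5.0001, and 3.49 and 3.82 TPM in KH cells. DNMT3ABKO cells held 8.58 and 9.33, 28.1 and 27.6, and 21.9 and 25.6 TPM, again all above every KH library. The difference was 2.03 ± 0.10 at 0 h (adjusted p = 1.33e-06), 2.24 at 72 h (adjusted p = 2.26e-07) and 2.41 at 144 h (adjusted p = 3.9e-08). Smc1b rose by 1.32 at 72 h in KH (adjusted p = 7.09e-06) and by 1.54 in DNMT3ABKO cells (adjusted p = 1.53e-06). In mean TPM the order was the reverse, 3.54-fold in KH and 3.11-fold in DNMT3ABKO cells. Smc1b then fell by 0.39 in KH cells (adjusted p = 0.0191). That call was lost when any 1 of the 4 KH libraries at 72 and 144 h was left out (-0.44 to -0.34).

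Stag3, the meiotic counterpart of STAG1 and STAG2 (chromosome 5, 138280240 to 138312393, ENSMUSG00000036928.14), was the most abundant of the 10 genes in untreated KH cells. KH cells held 6.37 and 6.98, 18.6 and 18.1, and 12.1 and 13.1 TPM, and DNMT3ABKO cells 9.56 and 10.6, 26.9 and 27.0, and 21.1 and 24.1 TPM. The rise at 72 h was nearly equal in the lines, 1.33 ± 0.09 in KH (adjusted p = 3.89e-06) and 1.34 ± 0.09 in DNMT3ABKO cells (adjusted p = 2.1e-06). From 72 to 144 h Stag3 fell by 0.51 in KH cells (adjusted p = 0.00321), and in DNMT3ABKO cells the step was -0.25 (adjusted p = 0.0718), which passed without either untreated replicate of that line (adjusted p = 0.0385 and 0.0387). Stag3 exceeded KH by 0.53 at 0 h (adjusted p = 0.00573), 0.53 at 72 h (adjusted p = 0.00289) and 0.80 at 144 h (adjusted p = 0.000157), the smallest of the called higher differences at each time. The call at 0 h was lost with only the groups compared in the model (adjusted p = 0.219).

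Rec8, a kleisin that closes the meiotic cohesin ring (chromosome 14, 55618037 to 55625395, ENSMUSG00000002324.8), hardly changed. Its promoter, on the plus strand at chr14:55617916-55618215, is shown as that of the member with the narrowest range, with TCCCGC and CCAAT in capitals.
Rec8: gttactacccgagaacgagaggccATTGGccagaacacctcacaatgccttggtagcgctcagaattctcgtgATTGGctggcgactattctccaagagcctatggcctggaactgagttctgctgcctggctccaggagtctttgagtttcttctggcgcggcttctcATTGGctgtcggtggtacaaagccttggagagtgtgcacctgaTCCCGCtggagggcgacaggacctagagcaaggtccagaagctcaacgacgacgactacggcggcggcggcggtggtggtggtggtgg
The libraries ranged from 3.05 to 4.75 TPM over all 12.

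KH cells held 3.85 and 3.05, 4.68 and 4.27, and 4.71 and 4.75 TPM of Rec8, and DNMT3ABKO cells 3.55 and 3.52, 4.37 and 4.19, and 4.56 and 4.74 TPM. The lines overlapped at every time, with differences of 0.03 (95% interval -0.20 to 0.27, adjusted p = 0.872), -0.05 (-0.29 to 0.18, adjusted p = 0.786) and -0.02 (-0.26 to 0.21, adjusted p = 0.914), the last of which was 0.02 after median-ratio scaling. Treated libraries stood above untreated ones in each line. The rise to 144 h was 0.37 in KH (adjusted p = 0.0139) and 0.32 in DNMT3ABKO cells (adjusted p = 0.0257), and neither call held with only the groups compared in the model (adjusted p = 0.0576 and 0.105). The KH rise at 72 h, 0.30 (adjusted p = 0.0367), was lost in 13 of 18 alternatives, with 0.17 (adjusted p = 0.24) without KH replicate 2 at 0 h. Leaving out that library also ended the KH call at 144 h (0.24, adjusted p = 0.107), as did leaving out either KH library at 144 h (adjusted p = 0.0567 and 0.0611). Each of the 4 DNMT3ABKO libraries at 0 and 144 h ended the call in that line when left out (adjusted p = 0.0543 to 0.114).

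**Figure D2:**
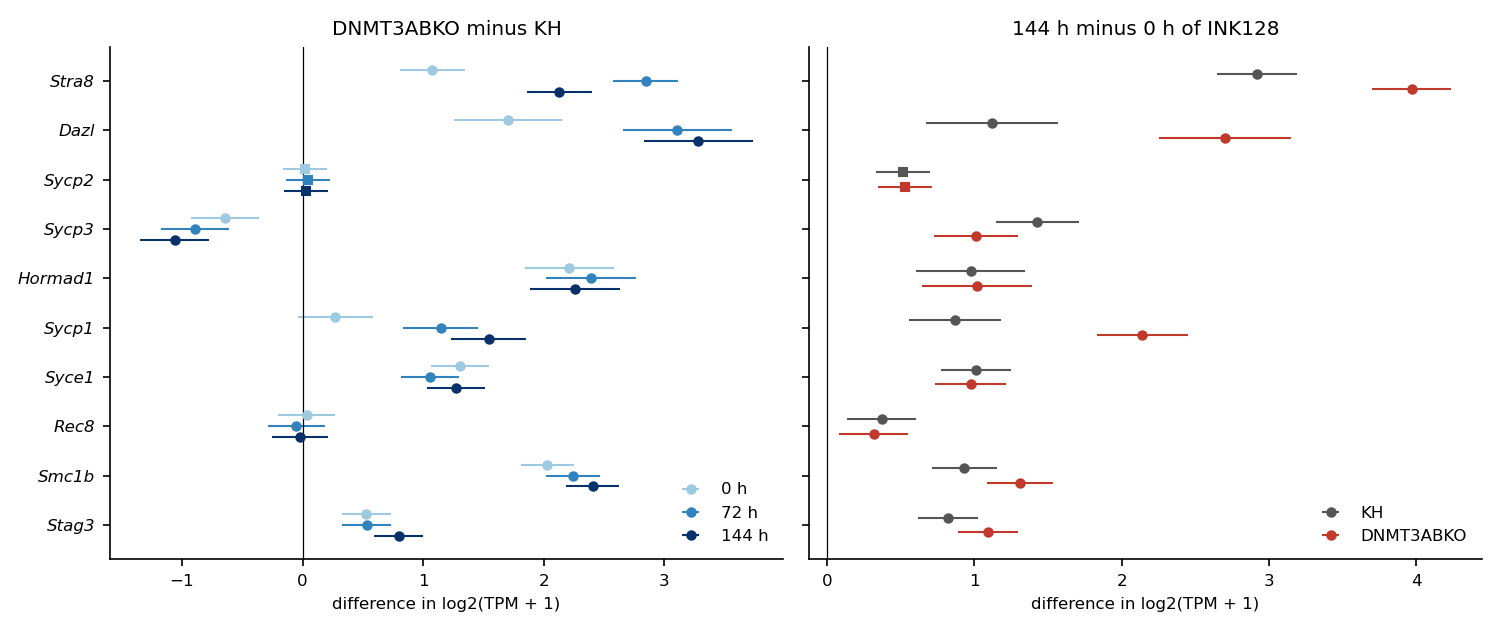
Differences in log2(TPM + 1) (horizontal axes) with 95% intervals as bars: DNMT3ABKO minus KH at 3 times (left) and 144 h minus 0 h in each line (right); squares mark Sycp2, fitted without the filter on low values. Sycp3 lies left of 0 at all times, Sycp2 and Rec8 straddle 0, and Stra8, Dazl and Sycp1 are the genes whose 144 h responses separate by line.

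Whether the response to mTORi itself differed between the lines was tested as a difference of differences. At 72 h, 3 of the 9 genes were called, all with a larger rise in DNMT3ABKO cells (3.38% of tested genes), and at 144 h again 3 (4.89%). They were the same genes, Stra8, Dazl and Sycp1. The size of each excess depends on the 1 TPM added before the logarithm, because the lines started from unequal levels. The excess for Stra8 was 1.77 ± 0.17 at 72 h (adjusted p = 0.00058) and 1.05 ± 0.17 at 144 h (adjusted p = 0.00404). In mean TPM Stra8 rose 2.08-fold in KH and 6.62-fold in DNMT3ABKO cells by 72 h, and 11.7-fold and 18.8-fold by 144 h. For Dazl the excess was 1.41 ± 0.28 (adjusted p = 0.0194) and 1.58 ± 0.28 (adjusted p = 0.00723), with rises by 144 h of 2.73-fold in KH and 6.9-fold in DNMT3ABKO cells. For Sycp1 the excess was 0.87 ± 0.20 (adjusted p = 0.0328) and 1.27 ± 0.20 (adjusted p = 0.00293), with rises by 144 h of 2.38-fold and 6.08-fold. The 144 h values of all 3 passed under every alternative without a size threshold, whereas at 72 h only Stra8 did so.

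At 72 h Dazl missed the threshold in 8 and Sycp1 in 12 of 18 alternatives. With a pseudocount of 0.1 TPM the 72 h excess of Dazl was 1.22 (adjusted p = 0.0664) and that of Sycp1 0.91 (adjusted p = 0.0997). Dazl also missed it without KH replicate 1 or 2 at 0 h, KH replicate 2 at 72 h, or either DNMT3ABKO replicate at 72 h (1.28 to 1.49, adjusted p = 0.0528 to 0.0901). Sycp1 missed it without KH replicate 1 or DNMT3ABKO replicate 1 at 0 h, any of the 4 libraries at 72 h, or either DNMT3ABKO replicate at 144 h (0.71 to 0.97, adjusted p = 0.0513 to 0.133). For the other 6 genes the difference in response was not called. At 144 h the intervals were -0.48 to 0.57 for Hormad1, -0.38 to 0.30 for Syce1, -0.39 to 0.28 for Rec8, -0.02 to 0.56 for Stag3, 0.06 to 0.69 for Smc1b (adjusted p = 0.14) and -0.82 to -0.02 for Sycp3 (adjusted p = 0.198). Smc1b, Hormad1, Syce1 and Stag3 thus had a higher level in DNMT3ABKO cells at every time with no called difference in response, whereas Sycp1 had no called difference in level before treatment.

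The late step of Stra8 was compared between the lines after its values had been seen. The gain from 72 to 144 h was smaller in DNMT3ABKO than in KH cells (-0.72 ± 0.17, adjusted p = 0.0408), where 2.25% of tested genes were called lower. The call was lost in 14 of 18 alternatives, among them leaving out any 1 library other than the untreated DNMT3ABKO ones (-0.78 to -0.65, adjusted p = 0.0602 to 0.162).

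Meiotic cohesin subunits were set against their mitotic counterparts, which every dividing cell uses, by TPM in each library. Smc1b stood at 2.52% and 2.68% of Smc1a in untreated KH libraries, 8.05% and 7.64% at 72 h, and 4.83% and 5.56% at 144 h. In DNMT3ABKO cells it stood at 15.5% and 16.6%, 46% and 46.5%, and 34.1% and 36.5%. Rec8 stayed between 1.87% and 2.94% of Rad21 in all 12 libraries. Stag3 ran from 18.7% of Stag2 and 13.9% of Stag1 in untreated KH cells to 66.1% and 69.9% in treated DNMT3ABKO cells. REC8 is a kleisin that STAG3 and SMC1B can join in meiotic cohesin. The subunits of that complex thus differed in how far their RNA stood below that of their mitotic counterparts. Of the 10 mitotic cohesin genes and loaders, 0 were called between the lines at 0 and 72 h and 1 at 144 h (Stag2, -0.48, adjusted p = 0.00415). Of all tested genes, 9.06%, 19.3% and 26.5% were called at these times. From 0 to 144 h, 6 rose in each line, with a median of 0.35 in KH (27.4% of tested genes higher) and 0.28 in DNMT3ABKO cells (31.4%).

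**Figure D3:**
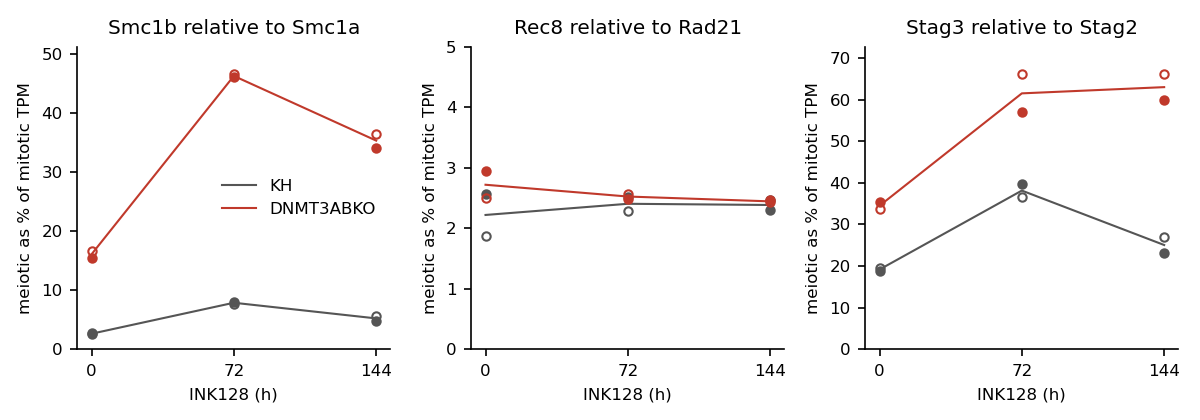
TPM of a meiotic cohesin subunit as a percentage of its mitotic counterpart (vertical axes, linear, from 0) against hours of INK128 in KH (grey) and DNMT3ABKO (red) libraries, with lines through the means. Smc1b reached 46.5% of Smc1a in DNMT3ABKO cells at 72 h, and Rec8 stayed under 3% of Rad21.

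Other genes of the pathway were taken from lists. By 144 h, 31.4% of all tested genes were called higher and 26.2% lower in DNMT3ABKO cells, with 27.4% and 23.9% in KH cells. Between the lines at 144 h, 26.5% were called in either direction. Of 14 other regulators of meiotic entry, 7 were tested, and 5 rose by 144 h in DNMT3ABKO cells (median 0.75) and 4 in KH cells (median 0.78). Dmrt1, a germ cell transcription factor that activates Stra8 in the ovary, rose by 1.96 ± 0.08 in DNMT3ABKO (adjusted p = 2.28e-08) and 1.84 in KH cells (adjusted p = 7.7e-08), from 5.64 to 24.9 and from 5.51 to 22.3 TPM. At 72 h it stood higher in DNMT3ABKO cells, at 42.6 against 25.6 TPM (0.71, adjusted p = 0.000149). From 72 to 144 h Dmrt1 fell by 0.75 in DNMT3ABKO cells (adjusted p = 7.37e-05), with no called step in KH cells (-0.19, adjusted p = 0.114). Sohlh2, a factor of early germ cell differentiation, was the 1 gene of this list called between the lines at 144 h (1.65 ± 0.10, adjusted p = 1.02e-06). Meioc, whose product keeps meiotic cells from returning to mitosis, rose by 1.46 (adjusted p = 7.41e-06) and 1.02 (adjusted p = 0.000129). Meioc stood lower in DNMT3ABKO than in KH cells at 0 h (-0.64, adjusted p = 0.014) and 72 h (-0.50, adjusted p = 0.0241). At 144 h no difference was called (-0.20, adjusted p = 0.29). Of the 7 tested regulators, 2 stood higher and 1 lower in DNMT3ABKO cells at 0 h, and 3 and 1 at 72 h. Of all tested genes, 9.06% and 19.3% were called in either direction at these times. Meiosin, the partner of STRA8 (Gm4969 in the files), was higher at 72 h in both lines, by 0.69 in KH (adjusted p = 0.00266, 1.28 to 2.67 TPM) and 0.60 in DNMT3ABKO cells (adjusted p = 0.00439, 2.72 to 4.71 TPM). At 144 h it stood at 1.78 and 2.18 TPM, with no called difference from 0 h (adjusted p = 0.108 and 0.188). DNMT3ABKO cells exceeded KH cells by 0.71 at 0 h (adjusted p = 0.0112) and 0.62 at 72 h (adjusted p = 0.0116). Ythdc2, the RNA helicase that works with MEIOC, rose by 0.45 in DNMT3ABKO cells (adjusted p = 0.00618).

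Of 16 other axis and synaptonemal complex genes, 9 were tested. By 144 h in DNMT3ABKO cells 3 had risen and 2 had fallen (median 0.05), beside 31.4% and 26.2% of all tested genes. Against KH cells 4 stood higher and 0 lower (median 0.44), where 26.5% of tested genes were called in either direction. Fkbp6, which is needed for the synaptonemal complex and for piRNA, stood at 45.4 ± 0.108 (SD, n = 2) against 1.85 ± 0.369 TPM at 144 h (4.03 ± 0.15 SE, adjusted p = 1.37e-08) and was already at 35.4 against 1.26 TPM at 0 h. Majin, which ties telomeres to the nuclear envelope, rose by 1.48 (adjusted p = 4.38e-05) and the central element gene 4930447C04Rik (Six6os1) by 0.94 (adjusted p = 0.00122). Hormad2, the relative of Hormad1, fell by 1.80 in DNMT3ABKO (adjusted p = 4.57e-06) and by 0.88 in KH cells (adjusted p = 0.000821), and still stood 0.82 higher in DNMT3ABKO cells (adjusted p = 0.00313).

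Of 25 recombination genes, 15 were tested. At 144 h in DNMT3ABKO cells 4 were higher and 4 lower (median -0.02), beside 31.4% and 26.2% of all tested genes. Against KH cells 4 were higher and 0 lower (median 0.05), where 26.5% of tested genes were called in either direction. Dmc1, the meiotic strand-exchange protein, rose by 1.13 (adjusted p = 0.000138), and Tex15, needed for meiotic break repair, by 1.01 (adjusted p = 4.41e-05). Rec114, a partner of the break-forming machinery, stood 2.18 higher than in KH cells at 144 h (adjusted p = 1.87e-06) although it had fallen by 0.70 (adjusted p = 0.00192). Spo11, the nuclease that makes the breaks, averaged at most 0.03 TPM in any group.

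**Figure D4:**
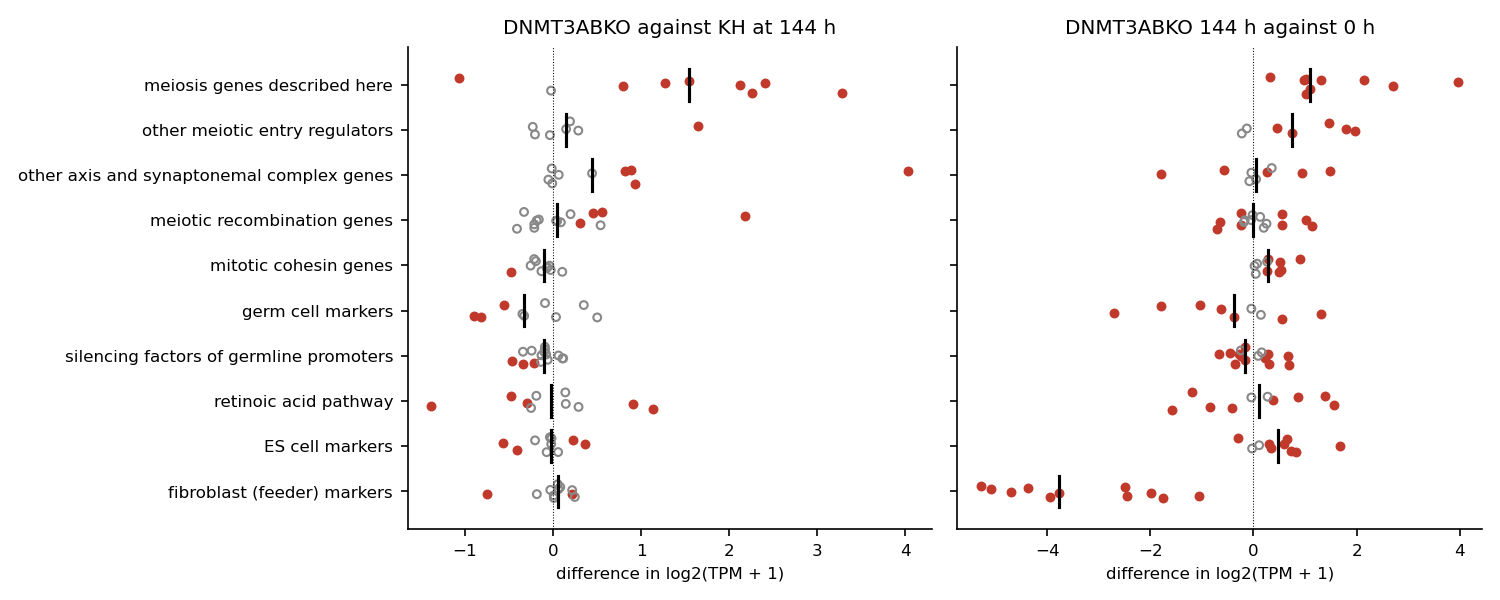
Differences in log2(TPM + 1) (horizontal axes) of every tested gene of 10 lists, DNMT3ABKO minus KH at 144 h (left) and 144 h minus 0 h in DNMT3ABKO cells (right); filled red points were called, open points were not, and bars are list medians. The 9 tested meiotic genes described here have a median of 1.55 on the left, Fkbp6 is the point at 4.03, and fibroblast markers lie below 0 on the right.

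Markers of germ cells moved in both directions. Of 12 markers, 9 were tested. In KH cells 4 were higher and 2 lower at 72 h (median 0.29), where 28.3% of all tested genes were called higher. Of all genes called in that comparison, 59.1% were higher and the rest lower. At 144 h 2 were higher and 2 lower (median -0.10), beside 27.4% and 23.9% of all tested genes. In DNMT3ABKO cells 1 was higher and 4 lower at 72 h (median -0.30), where 34.3% of all tested genes were called higher. Higher genes made up 61.3% of all those called there, and the rest were lower. At 144 h 2 were higher and 5 lower (median -0.38), beside 31.4% and 26.2% of all tested genes. By 144 h in DNMT3ABKO cells Dppa3, expressed in primordial germ cells and naive ES cells, fell from 97.8 to 14.1 TPM (-2.71 ± 0.10, adjusted p = 1.97e-08), Tfap2c from 47.4 to 12.8 TPM (-1.80 ± 0.12, adjusted p = 1.18e-06), and Prdm1 fell by 1.04 (adjusted p = 8.49e-05). Mael, a piRNA pathway gene, rose by 1.31 (adjusted p = 0.000118). Ddx4, the germ cell RNA helicase, rose by 0.51 in KH cells at 72 h (adjusted p = 0.011), from 10.2 to 14.9 TPM, and had no called change in DNMT3ABKO cells, at 7.64, 8.83 and 8.44 TPM. Of 10 late spermatogenic markers 2 were tested and both rose, Ybx2 by 1.00 (adjusted p = 1.23e-05) and Hspa2 by 0.69 (adjusted p = 0.000502), whereas Prm1, Tnp1 and Acrv1 were listed at 0 in every library. Of 8 Sertoli and granulosa cell markers 2 were tested, and Sox9 fell by 0.82 (adjusted p = 0.00024).

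Factors that silence germline promoters and genes of the retinoic acid pathway were also measured. Of 15 silencing factors, 5 rose and 7 fell by 144 h in DNMT3ABKO cells (median -0.16), where 31.4% of all tested genes were called higher and 26.2% lower, and 5 rose and 4 fell in KH cells (27.4% and 23.9%). Against KH cells 0 stood higher and 3 lower at 144 h, where 26.5% of all tested genes were called in either direction. E2f6 rose in both lines, by 0.66 in DNMT3ABKO (adjusted p = 0.000326) and 0.58 in KH cells (adjusted p = 0.000997), and Ehmt2, a histone H3 lysine 9 methyltransferase, fell by 0.66 and 0.45 (adjusted p = 1.25e-05 and 0.000251). Mga had no called difference between the lines (-0.34, adjusted p = 0.194). Of 15 retinoic acid genes, 10 were tested, with 4 higher and 4 lower at 144 h in DNMT3ABKO cells (31.4% and 26.2% of all tested genes). The receptor gene Rarg rose from 58.9 to 176 TPM (1.56 ± 0.07, adjusted p = 5.76e-08) and Aldh1a2, which makes retinoic acid, from 1.71 to 6.09 TPM (1.39 ± 0.12, adjusted p = 6.73e-06), 1.13 above KH cells (adjusted p = 0.000109). Cyp26a1, which breaks retinoic acid down, fell by 0.41 in DNMT3ABKO (adjusted p = 0.0265) and by 1.81 in KH cells (adjusted p = 3.95e-06).

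Across the 12 libraries, which share their lines and times, the members followed each other to unequal degrees. Pearson's r of log2(TPM + 1) was 0.99 between Hormad1 and Smc1b, 0.98 between Dazl and Smc1b and 0.96 between Dazl and Hormad1, and 0.85 between Stra8 and Dazl. Sycp3 had r between -0.34 (Hormad1) and 0.64 (Rec8) with the other 8 tested members. Among all tested named genes, Piwil4 (r of 0.978) and Sult4a1 (0.977) were among the 3 with patterns most like Stra8, and most like Dazl were those of Mageb4 (0.990), Rpl39l (0.988) and Arhgap44 (0.983). For Hormad1 the closest gene was Smc1b (0.993), and for Smc1b it was Hormad1, followed for both by the Y-linked helicase gene Ddx3y (0.987). The closest to Sycp1 was Trim52 (0.994), to Syce1 Zfp981 (0.985), to Stag3 Nudt12 (0.988), to Sycp3 Helq (0.979) and to Rec8 Usp49 (0.963).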

How the data were processed

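RNA-seq of the 12 libraries used rRNA-depleted total RNA with spike-in RNA added. The authors trimmed reads (cutadapt 2.4), aligned them to mm10 (STAR 2.7.3a) and quantified genes (StringTie 2.0). These versions are from the submitters' processing notes, and the study's methods name other releases of STAR and StringTie. They deposited TPM per gene, which sums to 1000000 in each library and holds no spike-in row. Counts were not used here, so depth and counting error are unknown, and 15178 to 15811 genes reached 1 TPM per library.

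Rows that repeated an identifier (9 to 16 per library) were summed. Values were tested on log2(TPM + 1) with limma 3.58.1 (R 4.3.3; 6 group means, mean-variance trend, Benjamini-Hochberg over the 15727 genes averaging 1 TPM or more) in 12 comparisons, of which the difference between lines in the late step was added after seeing the data. The study tested counts with DESeq2, which TPM does not allow. Intervals are limma's, at 95%. The steps were tested on simulated data. Python 3.11.15, pandas 2.3.3, NumPy 2.4.6 and matplotlib 3.10.9 were used for tables and plots.

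The 10 genes and all lists were chosen with earlier results of these data known. All 10 genes were named. From each list came at most the 4 genes with the largest difference among those called, with libraries that did not overlap, in DNMT3ABKO cells at 144 h against 0 h or against KH cells, and direct counterparts of the 10 genes. For each tested gene the 3 most alike named genes were taken by Pearson's r, leaving out predicted genes. A few genes that these rules name are not reported here. Replicate numbers were not taken to pair the samples. The alternatives were a 0.1 TPM pseudocount, no filter, median-ratio scaling, only the groups compared, a replicate block within each line or, added after seeing the data, across both lines, a difference of at least 1, and leaving out each library. Promoters are from RefSeq (GRCm38.p6).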

Additional observations from a re-analysis of the deposited data

Results flagged for a closer look

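The response to INK128 differed between the lines for 3 genes. At 72 h the rise in DNMT3ABKO cells exceeded that in KH cells by 1.77 for Stra8, 1.41 for Dazl and 0.87 for Sycp1 on the log2(TPM + 1) scale. At 144 h the excess was 1.05 for Stra8, 1.58 for Dazl and 1.27 for Sycp1. The step of Stra8 from 72 to 144 h was smaller in DNMT3ABKO cells (-0.72), a comparison chosen after seeing the data. Each was a limma test of the difference itself, and its size depends on the 1 TPM added, because the lines started from unequal levels.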

How the results depend on the processing

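With a difference of at least 1 required, 4 genes were called in KH cells at 144 h against 0 h, 1 from 72 to 144 h in KH cells, 1 in DNMT3ABKO cells and 0 for the late-step difference. The 72 h difference in response was called for 1 gene with a pseudocount of 0.1 TPM, without the filter and with only the groups compared, and the late-step difference for 0 without the filter and with scaling. Leaving out single libraries gave 1 to 3 genes in DNMT3ABKO cells from 72 to 144 h, 1 to 3 for the 72 h difference and 0 to 1 for the late-step difference.

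Of 2052 values under alternatives, 1933 kept direction and side of the threshold, 91 lost the call, 3 gained it and 25 changed sign, each with neither value called. With a pseudocount of 0.1 TPM the differences in response were -0.045 (Hormad1, 144 h), -0.13 (Smc1b, 72 h) and -0.031 (Stag3, 72 h). With scaling they were -0.020 (Stag3, 72 h) and, for Rec8 between lines at 144 h, 0.023. Leaving out single libraries gave -0.069 to 0.16 (Dazl) and -0.067 to 0.12 (Syce1) from 72 to 144 h in DNMT3ABKO cells. For Rec8 between the lines it gave -0.10 to 0.17 (0 h), -0.10 to 0.0028 (72 h) and -0.044 to 0.0026 (144 h). Differences in response ranged over -0.0011 to 0.36 (Hormad1, 72 h), -0.13 to 0.22 (Hormad1, 144 h), -0.17 to 0.095 (Syce1, 144 h), -0.22 to 0.046 (Rec8, 72 h), -0.19 to 0.077 (Rec8, 144 h) and -0.061 to 0.071 (Stag3, 72 h). Late-step differences ranged over -0.31 to 0.046 (Hormad1) and -0.023 to 0.084 (Rec8). The causes were not tested.

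Same-numbered replicates correlated in their deviations with r of -0.10 to 0.10 within a line and -0.06 to 0.13 between lines, apart from 0.34 between the untreated groups. Not every pair passed 0.1, so the numbers were not taken as a pairing. A replicate block within each line left 0 genes called for the late-step difference (Stra8, adjusted p = 0.0652) and ended the calls of Sycp1 in the 72 h difference (adjusted p = 0.0617) and Rec8 in KH cells at 72 h (adjusted p = 0.0519). A replicate block across both lines, added after seeing the data, left 0 genes called for the late-step difference (Stra8, adjusted p = 0.0548) and changed no other call of the 9 genes. A lone library left in a group was assumed to vary like the others. TPM gives no depth, so counting error could not be set beside the low values of Sycp2.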
